A study of Homo sapiens with 12 samples.

Results

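The collagen chain genes are the protein-coding genes of the deposited table whose symbols have the form COL, a number, A and a number. There were 43 of them among 48162 genes, and 34 had enough counts to be tested. Another symbol of this form, COL26A1, is listed as a polymorphic pseudogene and was left out. The cells were Caco-2 spheroids, an established line from a human colorectal adenocarcinoma that can take on features of absorptive enterocytes. In the tested groups, spheroids received methotrexate, lactoferrin or methotrexate with lactoferrin for 4 h, and in the control group they received carrier fluid for 4 h, with 3 libraries in each of the 4 groups. All groups shared cells of passage 26 that had grown for 5 days in matrigel, a basement membrane extract, in medium with 20% fetal bovine serum and no change of medium. The sources used here name no dose, nor whether a group's 3 libraries are separate cultures, so p-values measure the spread between these libraries, which may be technical.

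Collagens are secreted or membrane-bound proteins in which 3 chains wind into a triple helix. Fibrillar collagens form the fibres of connective tissue, the network collagen type IV forms the scaffold of basement membranes, and FACIT collagens sit on fibril surfaces. In the intestine most fibrillar collagen is made by fibroblasts below the epithelium, while epithelial cells contribute to the basement membrane they rest on.

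Library totals were 47459811 to 60591667 counts in the methotrexate group and 18714054 to 23859094 counts in the other 9 libraries. A level of 3 counts, used here as the limit that a count of 0 allows, equalled 0.0495 to 0.0632 counts-per-million (CPM) in methotrexate libraries and 0.126 to 0.160 CPM in the others. Such limits and the counting intervals below cover counting error only. Mitochondrial genes took 6.67 to 7.54% of the counts in methotrexate libraries, 2.43 to 2.98% with lactoferrin, 2.56 to 2.73% with both agents and 2.00 to 3.34% in control. Markers of other cell types also differed in the methotrexate libraries. Of 10 fibroblast markers, 8 were called higher and 1 lower with methotrexate than in control, with a median log2 fold change of 9.32. Their summed level was 1074 to 1189 CPM with methotrexate, 867 to 959 CPM with lactoferrin, 886 to 1024 CPM with both agents and 881 to 982 CPM in control. CXCL14, DPT and MFAP5 were at 0 counts in all control, lactoferrin and both-agent libraries. Where tested, these markers entered only through the methotrexate libraries, so their calls are a description. Their fitted values, which enter the median, are no bound. How many of the other markers would be tested without the methotrexate libraries was not counted. All 8 adipocyte markers were called higher, and their sum was 15318 to 15871 CPM with methotrexate against 33.7 to 38.1 CPM in control, with 30.4 to 37.0 CPM in the lactoferrin and both-agent libraries. Smaller numbers were called higher among 7 endothelial (4, with 1 lower), 6 mural (4, with 1 lower), 7 blood (2) and 5 Schwann cell markers (2). All marker calls here are under TMM scaling, where 35.4% of all genes were called higher and 29.1% lower. The blood and Schwann cell counts were near that share of higher genes. The blood markers CD68 and HBB were at 0 in all 12 libraries. The 8 epithelial markers, all detected in every group, were all called lower, at a sum of 2598 to 2760 CPM with methotrexate against 5355 to 5761 CPM in control. Under the scaling on epithelial genes used below, 0.932% of all genes were called lower. The part of these differences in the collagen results was not tested, and in bulk RNA fewer cells of a type and less RNA per cell cannot be told apart.

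Collagen transcripts took far more of the methotrexate libraries than of any other. They made up 2.10 ± 0.106% of all counts with methotrexate, against 0.127 ± 0.00577% with lactoferrin, 0.117 ± 0.00536% with both agents and 0.120 ± 0.00697% in control (SD, n = 3 each). The 3 methotrexate libraries did not overlap with the other 9. Which chains made up this share also differed. With methotrexate the leading chain was COL3A1 at 15.5 ± 0.433% of collagen counts, followed by COL4A1, COL1A1 and COL6A1 at 12.6, 11.8 and 11.4%. COL5A2 and COL2A1 made up 3.03 ± 0.0378% and 0.492 ± 0.0767% there. In control the leading chain was COL5A2 at 30.8 ± 1.48%, followed by COL2A1 at 22.2 ± 1.37% and COL6A1 at 13.8 ± 0.770%. The lactoferrin and both-agent libraries were also led by these chains, with COL5A2 at 29.6 ± 0.986% and 29.3 ± 2.63% and COL2A1 at 21.4 ± 1.14% and 20.5 ± 1.56%. The 5 leading chains of each library held 60.6 ± 0.314% of collagen counts with methotrexate and 83.7 ± 0.874% in control.

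**Figure D1:**
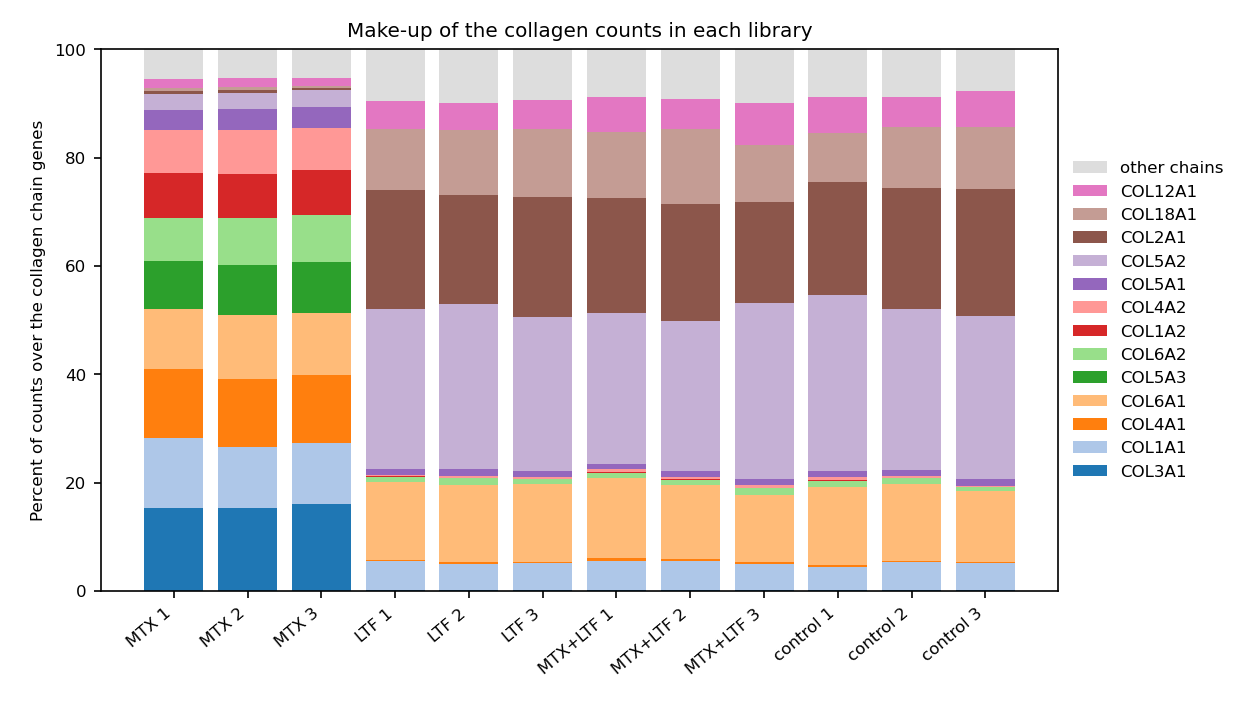
Stacked bars give the percentage of the counts over the collagen chain genes taken by each of 13 chains and by the remaining chains (grey), in each of the 12 libraries (MTX, methotrexate; LTF, lactoferrin). The methotrexate libraries are led by COL3A1, with 15.3 to 16.04%, while the other 9 are led by COL5A2, with 27.8 to 32.5%.

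The chains were sorted by their counts. A chain with at least 10 counts in each of the 9 libraries outside the methotrexate-alone group was called a Caco-2 chain, and there were 20. The name refers to those 9 libraries and does not assign the counts in methotrexate libraries to a cell type. A chain with at most 3 counts in each of those 9 and at least 30 in each methotrexate library was called confined to methotrexate libraries, and there were 3 (COL15A1, COL8A1 and COL21A1). A further 9 had at least 30 counts in each methotrexate library, under 10 in at least 1 of the other 9 and more than 3 in at least 1 of them (COL1A2, COL5A3, COL6A3, COL8A2, COL11A1, COL13A1, COL14A1, COL16A1 and COL24A1). The remaining 11 were scarce in all groups. Just inside the limit of the Caco-2 chains was COL4A4, whose lowest of the 9 counts was 15, and just outside was COL1A2, whose lowest was 9. COL21A1 and COL8A1 reached 3 counts outside the methotrexate group, and COL11A1, just outside this class, reached 4. Because these classes use the methotrexate columns, the difference between methotrexate and control within them is a description.

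Of the 34 chains tested, 24 were called higher and 7 lower in methotrexate libraries than in control, and 3 passed in neither direction (edgeR quasi-likelihood test, Benjamini-Hochberg adjusted p under 0.05 over 16733 genes). Of all genes tested, 35.4% were called higher and 29.1% lower. Of the 34 chains, 10 entered the test only through their counts in the methotrexate libraries, where they were high. Among the 24 chains that pass the same filter without those libraries, 14 were called higher and 7 lower, beside 29.8% and 32.1% of the 15143 genes that do so. Their median log2 fold change was 1.28, against -0.07 over those genes. The counts depended on the scaling. When libraries were scaled on a list of 35 brush border and junction genes, the median over all 16733 genes was 0.89, and 72.6% of them were called higher and 0.932% lower. Under this scaling 25 of the 34 chains were called higher and 0 lower, a share near that of all genes. Of the 24 chains, 15 were called higher and 0 lower, beside 70.3% and 1.03% of the 15143 genes, and the medians were 2.14 over the chains and 0.79 over the genes. Under TMM scaling, 12 of the 20 Caco-2 chains were higher and 6 lower, with a median log2 fold change of 1.28. The 12 chains that were confined to or low outside the methotrexate group were all higher, which is a description, since their classes use the methotrexate counts.

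**Figure D2:**
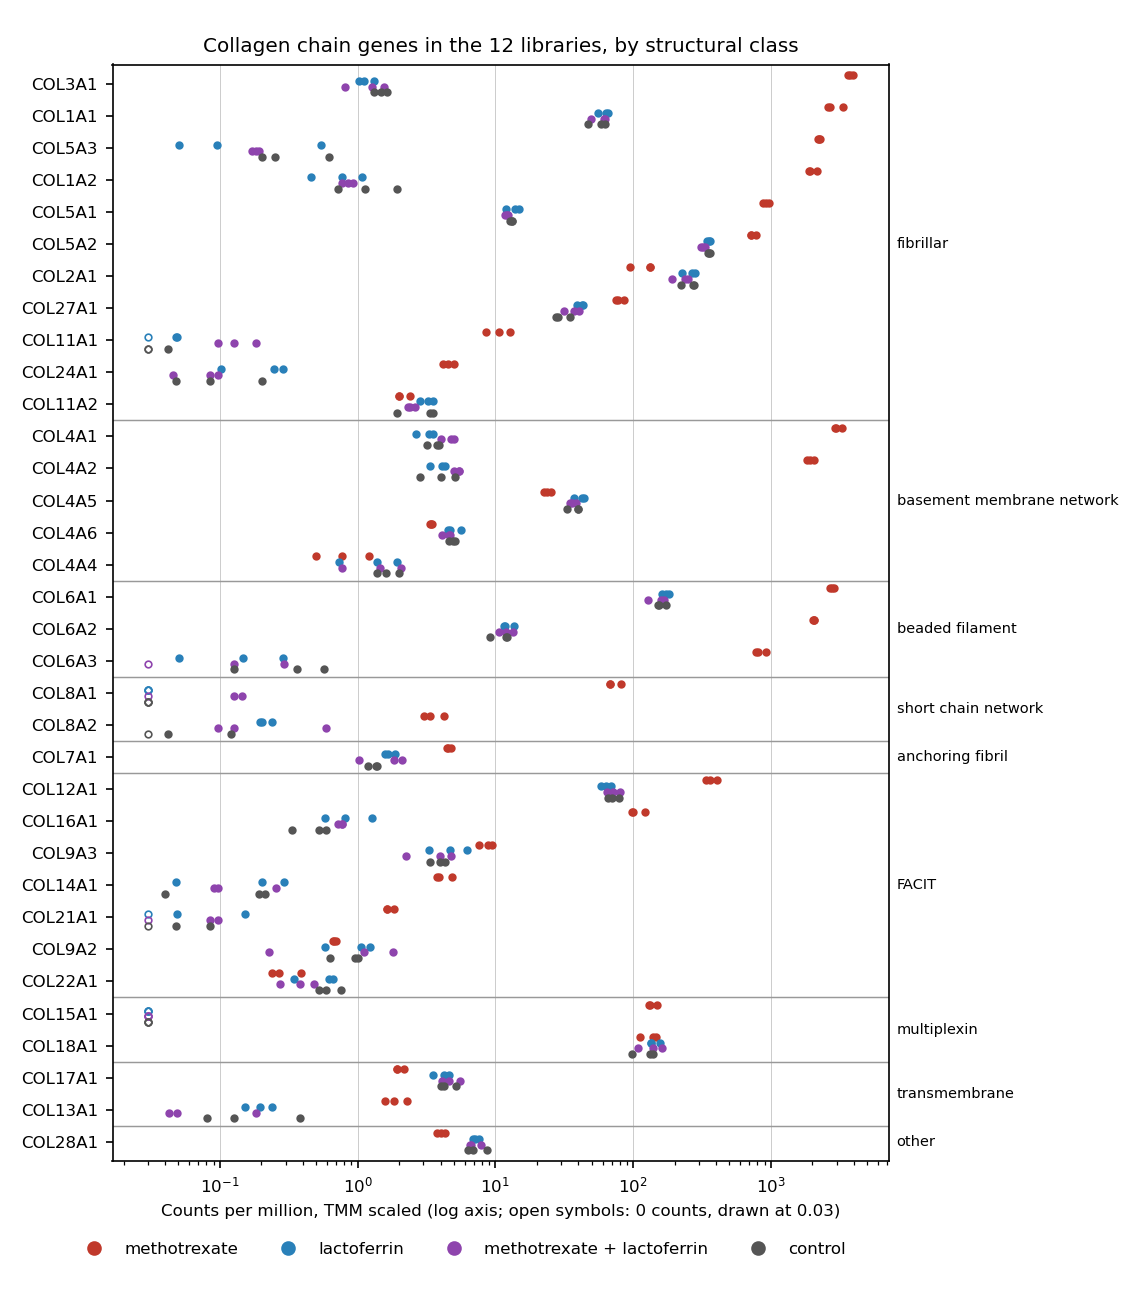
Points give the level of each tested chain in each of the 12 libraries in CPM on a log axis, grouped by structural class, with a colour per group and open symbols for 0 counts. The methotrexate points of COL3A1, COL4A1, COL1A1, COL6A1 and COL5A3 lie at 2217 CPM or higher, and no point of these 5 chains in the other groups lies above 181 CPM.

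Among the fibrillar chains, 9 of 11 were called higher with methotrexate, COL2A1 was called lower under TMM scaling and COL11A2 passed in neither direction. Of all genes, 35.4% were called higher under TMM scaling and 72.6% under epithelial scaling, where 9 fibrillar chains were also called higher. COL5A3, COL11A1 and COL24A1 entered the test only through the methotrexate libraries. COL3A1 (ENSG00000168542, hg19 chr2:189839046-189877472, plus strand) encodes the chain of type III collagen, a fibril of distensible tissues. It had 3979.9, 3626 and 3738 CPM in methotrexate libraries, 1.11, 1.03 and 1.32 CPM with lactoferrin, 0.807, 1.55 and 1.28 CPM with both agents, and 1.63, 1.49 and 1.31 CPM in control. The methotrexate libraries stood apart, and the other groups overlapped. The log2 fold change of methotrexate over control was 11.32 ± 0.17 (SE), with an adjusted p of 1.2e-16. COL1A1, the main chain of type I collagen, averaged 2881 ± 413 CPM with methotrexate against 56.0 ± 8.29 CPM in control (SD, n = 3 each), a log2 fold change of 5.68 ± 0.16 (adjusted p 3.28e-14). COL1A2, its partner chain, averaged 2002 ± 151 CPM with methotrexate and 1.25 ± 0.610 CPM in control. Within control, COL1A2 was highest in library 1 with 40 counts, against 28 and 17 in the others.

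Type V collagen nucleates fibrils, and its 3 chains started from very different levels. COL5A2 (hg19 chr2:189896622-190044605, minus strand), a neighbour of COL3A1 on the opposite strand, was the leading chain of the control spheroids. It had 778, 719 and 715 CPM with methotrexate, 358, 346 and 363 CPM with lactoferrin, 313, 324 and 334 CPM with both agents, and 350.4, 362 and 355 CPM in control. Every methotrexate library lay above the rest, at a log2 fold change of 1.05 ± 0.08 over control (adjusted p 7.37e-09). COL5A1 averaged 926.5 ± 44.5 CPM with methotrexate and 13.04 ± 0.303 CPM in control. COL5A3 averaged 2245 ± 38.3 CPM with methotrexate and 0.359 ± 0.230 CPM in control, where its counts were 13, 5 and 6.

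COL2A1 (hg19 chr12:48366748-48398269, minus strand) encodes type II collagen, the main fibrillar collagen of cartilage, and it was the second chain of the control spheroids by share of collagen counts. It had 132, 133 and 95.3 CPM with methotrexate, 266, 228 and 281 CPM with lactoferrin, 238, 252 and 193 CPM with both agents, and 224, 273 and 277 CPM in control. The methotrexate libraries were the lowest 3, with a log2 fold change of -1.10 ± 0.14 over control (adjusted p 4.82e-06). Scaled on the epithelial genes, the log2 fold change was -0.24 with an adjusted p of 0.15, so the call was lost. Per kilobase of gene model, COL2A1 and COL5A2 stood at 23.7 and 106 CPM per kb with methotrexate, against 50.8 and 51.2 CPM per kb in control. Among the other fibrillar chains, COL27A1 averaged 79.9 ± 5.92 CPM with methotrexate and 30.3 ± 3.72 CPM in control, a log2 fold change of 1.40 ± 0.12 (adjusted p 4.07e-08). COL11A1 had 1497 counts over the methotrexate libraries and 1 over the control libraries, a ratio of 729 with an exact 95% counting interval from 131 to 28814. COL24A1 averaged 4.58 ± 0.441 CPM with methotrexate and 0.111 ± 0.0799 CPM in control. COL11A2 averaged 2.12 ± 0.228 CPM with methotrexate and 2.93 ± 0.887 CPM in control, and its libraries overlapped (adjusted p 0.075).

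The 6 type IV genes lie in 3 pairs that are read in opposite directions from neighbouring starts. COL4A1 and COL4A2, whose protein chains are found in basement membranes throughout the body, were called higher with methotrexate, and COL4A4, COL4A5 and COL4A6, which are limited to fewer tissues, were called lower under TMM scaling but not under epithelial scaling. COL4A1 (hg19 chr13:110801318-110959496, minus strand) had 3308, 2973 and 2926.5 CPM with methotrexate, 2.65, 3.54 and 3.30 CPM with lactoferrin, 5.01, 4.804 and 4.06 CPM with both agents, and 3.88, 3.22 and 3.76 CPM in control. COL4A2 (hg19 chr13:110958159-111165374, plus strand) had 2068, 1927 and 1827 CPM with methotrexate, 3.37, 4.32 and 4.11 CPM with lactoferrin, 5.48, 5.43 and 5.02 CPM with both agents, and 5.08, 4.02 and 2.83 CPM in control. For both genes every methotrexate library lay far above the other 9. The log2 fold changes over control were 9.73 ± 0.15 for COL4A1 and 8.94 ± 0.18 for COL4A2, with adjusted p of 1.2e-16 and 1.2e-15. The 2 genes share 1338 bases on opposite strands in the table's coordinates, and the sources used here do not say whether counting used strand, so counts from that stretch are uncertain.

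COL4A5 and COL4A6 were both at their lowest with methotrexate, by less than the scalings differ. COL4A5 (hg19 chrX:107683074-107940775, plus strand), the leading type IV chain of the control spheroids, had 23.5, 25.2 and 22.6 CPM with methotrexate, 44.4, 37.3 and 42.7 CPM with lactoferrin, 38.8, 34.9 and 35.7 CPM with both agents, and 39.9, 39.99 and 33.3 CPM in control. COL4A6 (hg19 chrX:107386780-107682727, minus strand) had 3.48, 3.43 and 3.35 CPM with methotrexate, 5.63, 4.67 and 4.52 CPM with lactoferrin, 4.59, 4.12 and 4.70 CPM with both agents, and 4.94, 5.06 and 4.61 CPM in control. In both genes the methotrexate libraries were the lowest 3, at log2 fold changes of -0.66 ± 0.11 (adjusted p 6.03e-05) and -0.51 ± 0.15 (adjusted p 0.0085) over control. Scaled on the epithelial genes, these were 0.20 and 0.35 with adjusted p of 0.12 and 0.056, so that the direction turned and neither was called. Without the filter on low counts the call of COL4A6 was also lost (-0.48, adjusted p 0.063). Part of COL4A6 overlaps ATG4A on the opposite strand over 11122 bases, which adds uncertainty to its counts. COL4A4 had 1.21, 0.776 and 0.496 CPM with methotrexate, 1.39, 0.737 and 1.93 CPM with lactoferrin, 1.44, 0.776 and 2.05 CPM with both agents, and 2.01, 1.61 and 1.39 CPM in control. Its methotrexate and control libraries did not overlap, but the call (adjusted p 0.033) was lost, at adjusted p from 0.062 to 0.12, without control library 1 or 2 or without methotrexate library 2 or 3, and at 0.065 with the methotrexate libraries thinned to the depth of the others. COL4A3 was scarce, with 10, 5 and 7 counts with methotrexate, 4, 4 and 3 with lactoferrin, 8, 6 and 7 with both agents and 1, 12 and 7 in control, and was not tested.

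The stretches that lie within 250 bases upstream of both starts of each type IV pair are shown because the genes of the 2 pairs that could be tested in full went the same way. They are taken from RefSeq (GRCh38.p14) and written on the plus strand, at chr13:110307158-110307283, chr2:227164374-227164455 and chrX:108439588-108439708. Capitals mark matches on either strand to the GC box, whose letters are GGGCGG, to the TATA box, whose letters are TATAAA, and to the box named for its letters CCAAT.
COL4A1 and COL4A2: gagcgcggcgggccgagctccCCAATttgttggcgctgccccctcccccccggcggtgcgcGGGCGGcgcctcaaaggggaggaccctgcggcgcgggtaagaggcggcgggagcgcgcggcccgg
COL4A4 and COL4A3: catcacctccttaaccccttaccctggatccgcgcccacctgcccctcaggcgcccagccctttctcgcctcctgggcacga
COL4A6 and COL4A5: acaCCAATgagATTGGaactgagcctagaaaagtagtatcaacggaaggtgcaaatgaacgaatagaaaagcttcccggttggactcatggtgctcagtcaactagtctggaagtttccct
The first pair's starts are 127 bases apart, so that its 126 bases are all that lies between them, and they hold 80.2% G and C, 1 CCAAT box and 1 GC box. The starts of the COL4A4 pair are 419 bases apart, and the 82 shared bases hold none of the 3 motifs. The starts of the COL4A6 pair are 380 bases apart, and the 121 shared bases hold 44.6% G and C and 2 CCAAT boxes in opposite directions. Over all 35114 RefSeq windows of 250 bases upstream of a start, 42.6% hold the GC box, 32.0% the CCAAT box and 10.7% the TATA box on either strand. A match describes the letters and does not show that a factor binds.

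Type VI collagen forms beaded filaments between cells and fibrils from 3 different chains. All 3 tested chains of this class were called higher with methotrexate under both scalings. Of all genes, 35.4% were called higher under TMM scaling and 72.6% under epithelial scaling. COL6A3 entered the test only through the methotrexate libraries. COL6A1 (hg19 chr21:47401651-47424964, plus strand), a leading chain in all groups, had 2874, 2793 and 2667 CPM with methotrexate, 173, 162 and 181 CPM with lactoferrin, 167, 159 and 128 CPM with both agents, and 154, 174 and 152 CPM in control. The methotrexate libraries stood apart, at a log2 fold change of 4.12 ± 0.11 over control (adjusted p 3.24e-14). COL6A2 averaged 2048 ± 20.3 CPM with methotrexate and 11.04 ± 1.69 CPM in control. COL6A3 averaged 837 ± 78.7 CPM with methotrexate and 0.355 ± 0.224 CPM in control, where control library 1 held 12 counts against 9 and 3 in the others. COL6A5 was at 0 in all 12 libraries, and COL6A6 had 3, 2 and 7 counts with methotrexate and 1, 0 and 0 in control.

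Chains that assemble together were compared by their levels per length. For 3 pairs the levels were alike in methotrexate libraries and unlike in the other groups. For the type IX pair and for COL4A1 and COL4A2 the levels were further apart with methotrexate than in control. Per kilobase, the ratio of COL1A1 to COL1A2 was 1.28 ± 0.0874 with methotrexate, 82.2 ± 39.7 with lactoferrin, 60.5 ± 4.03 with both agents and 48.0 ± 25.4 in control (SD, n = 3 each). In the triple helix of type I collagen the first chain is used in greater number than the second. The ratio of COL5A1 to COL5A2 was 1.03 ± 0.0200 with methotrexate and 0.0301 ± 0.00118 in control. The ratio of COL6A1 to COL6A2 was 1.11 ± 0.0311 with methotrexate and 12.003 ± 1.65 in control. COL6A3, the long chain of type VI collagen, stood further off, with COL6A1 at 8.44 ± 0.495 times its level with methotrexate and at 1649 ± 1241 times in control, where COL6A3 had 24 counts in all. In type IV collagen, COL4A1 to COL4A2 stood at 1.52 ± 0.0321 with methotrexate and 0.928 ± 0.304 in control. Its 3 methotrexate libraries, at 1.49 to 1.54, still lay above the highest control library, at 1.28. The ratio of COL4A5 to COL4A6 was 7.19 ± 0.353 with methotrexate and 7.99 ± 0.462 in control, and the libraries overlapped. The ratio of COL9A3 to COL9A2 was 14.9 ± 1.92 with methotrexate and 5.32 ± 0.763 in control, from 97 counts of COL9A2 with methotrexate and 60 in control. The ratio of COL5A3 to COL5A1 was 3.33 ± 0.107 with methotrexate and 0.0375 ± 0.0234 in control. The ratios are given as a description, without a test.

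**Figure D3:**
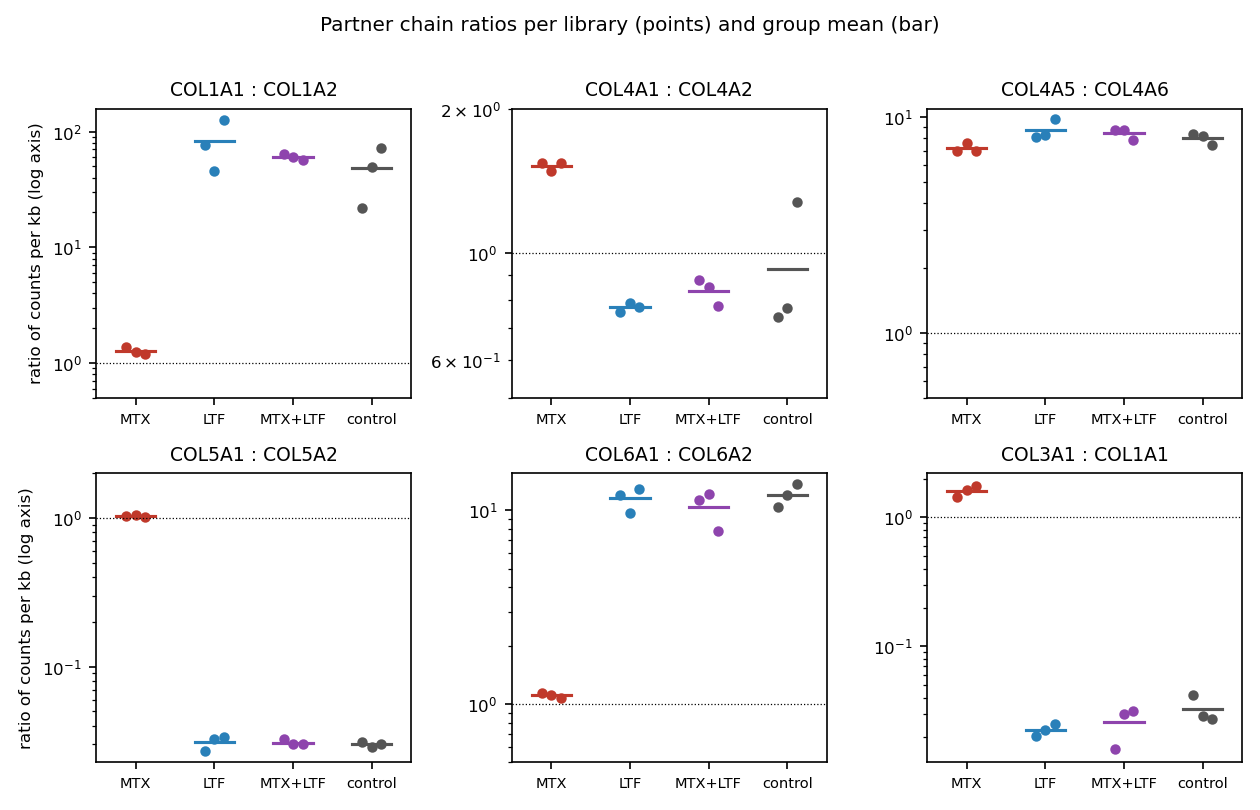
Points give, for each library, the ratio of counts per kilobase of gene model between a pair of chains, bars the group means, and the dotted line a ratio of 1 (log axes; MTX, methotrexate; LTF, lactoferrin). COL1A1 to COL1A2, COL5A1 to COL5A2 and COL6A1 to COL6A2 lie near 1 with methotrexate, at means of 1.28, 1.03 and 1.11, and far from 1 in the other groups.

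The multiplexins, basement membrane collagens whose ends can be released as endostatin or a like fragment, held COL15A1, which was at 0 outside the methotrexate libraries, and COL18A1, whose levels overlapped in all groups. COL15A1 (hg19 chr9:101705461-101833069, plus strand) had 149.6, 130.4 and 132 CPM with methotrexate, from 6067, 6722 and 6630 counts, and 0 counts in each of the other 9 libraries. This is at least 3152-fold higher than a floor of 3 counts over the control group. COL18A1 (hg19 chr21:46825052-46933634, plus strand) had 146, 139 and 112 CPM with methotrexate, 135, 135 and 158 CPM with lactoferrin, 139, 161 and 109 CPM with both agents, and 98.5, 139 and 133 CPM in control. Its groups overlapped, and its log2 fold change of methotrexate over control was 0.10 ± 0.15 (adjusted p 0.60). Scaled on the epithelial genes, it was called higher at 0.96 (adjusted p 5.13e-05). COL18A1 overlaps SLC19A1, the reduced folate carrier that brings methotrexate into cells, over 20149 bases on the opposite strand, so part of its counts is uncertain.

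The short chain network collagens line endothelial and cartilage matrices. COL8A1 (hg19 chr3:99357319-99518070, plus strand) had 81.5, 68.3 and 68.3 CPM with methotrexate, from 3306, 3521 and 3440 counts. It had 0 counts in every lactoferrin library, 3, 3 and 0 counts with both agents, and 0 in every control library. It was at least 1667-fold higher with methotrexate than a floor of 3 counts over the control group. COL8A2, its partner, averaged 3.53 ± 0.618 CPM with methotrexate and 0.0543 ± 0.0612 CPM in control, so that the 2 chains were in a ratio of 17.02 ± 1.34 per kilobase with methotrexate. COL10A1, a marker of growth plate cartilage, had 2, 3 and 5 counts with methotrexate, 5, 1 and 8 with lactoferrin, 4, 5 and 5 with both agents and 1, 3 and 2 in control. These counts were too few to test, and NT5DC1 overlaps the whole of the gene on the opposite strand.

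Of the 10 FACIT chains, 7 were tested, of which 5 were called higher with methotrexate, COL22A1 lower under TMM scaling and COL9A2 in neither direction. The count of 5 was the same under both scalings, beside 35.4% (TMM) and 72.6% (epithelial) of all genes. COL14A1 and COL21A1 entered the test only through the methotrexate libraries. COL12A1 (hg19 chr6:75794042-75915767, minus strand) was the leading FACIT chain in all groups. It had 404, 364 and 337 CPM with methotrexate, 63.7, 58.1 and 69.2 CPM with lactoferrin, 70.9, 64.4 and 81.0 CPM with both agents, and 70.4, 65.9 and 79.2 CPM in control. The methotrexate libraries stood apart, at a log2 fold change of 2.36 ± 0.12 over control (adjusted p 4.03e-11). COL16A1 averaged 107 ± 14.2 CPM with methotrexate and 0.483 ± 0.133 CPM in control. COL9A3 averaged 8.68 ± 0.945 CPM with methotrexate and 3.88 ± 0.496 CPM in control, and COL14A1 4.18 ± 0.606 CPM with methotrexate and 0.148 ± 0.0937 CPM in control. COL21A1 had 66, 85 and 92 counts with methotrexate and 1, 0 and 2 in control, a ratio of 39.4 with an exact 95% counting interval from 13.3 to 193. COL22A1 averaged 0.299 ± 0.0786 CPM with methotrexate and 0.628 ± 0.122 CPM in control (log2 fold change -1.06 ± 0.38, adjusted p 0.023), and lost the call under epithelial scaling (-0.21, adjusted p 0.65). COL9A1, COL19A1 and COL20A1 had at most 13 counts in any library.

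The anchoring fibril chain COL7A1, which ties the basement membrane to the tissue below it, had 4.56, 4.48 and 4.76 CPM with methotrexate, 1.88, 1.67 and 1.57 CPM with lactoferrin, 1.02, 1.84 and 2.10 CPM with both agents, and 1.20, 1.37 and 1.39 CPM in control. Every methotrexate library was above the other 9, at a log2 fold change of 1.80 ± 0.23 over control (adjusted p 5.59e-06). The transmembrane chain COL17A1 (hg19 chr10:105791044-105845760, minus strand), a part of the hemidesmosomes by which epithelial cells hold to the basement membrane, had 1.95, 1.94 and 2.16 CPM with methotrexate, 3.51, 4.62 and 4.21 CPM with lactoferrin, 4.63, 4.08 and 5.52 CPM with both agents, and 4.03, 5.23 and 4.27 CPM in control. The methotrexate libraries were the lowest 3, at a log2 fold change of -1.16 ± 0.19 over control (adjusted p 4.96e-05), which was -0.30 and not called under epithelial scaling (adjusted p 0.16). COL13A1 averaged 1.90 ± 0.348 CPM with methotrexate and 0.197 ± 0.163 CPM in control. COL23A1 and COL25A1 had at most 15 counts in any library. COL28A1, a chain outside the other classes, had 3.80, 4.31 and 4.01 CPM with methotrexate, 7.07, 7.57 and 6.90 CPM with lactoferrin, 6.63, 7.86 and 6.57 CPM with both agents, and 6.38, 8.68 and 6.85 CPM in control. It was called lower with methotrexate at a log2 fold change of -0.86 ± 0.15 (adjusted p 0.00015), and stood at 0.01 under epithelial scaling (adjusted p 0.98).

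**Figure D4:**
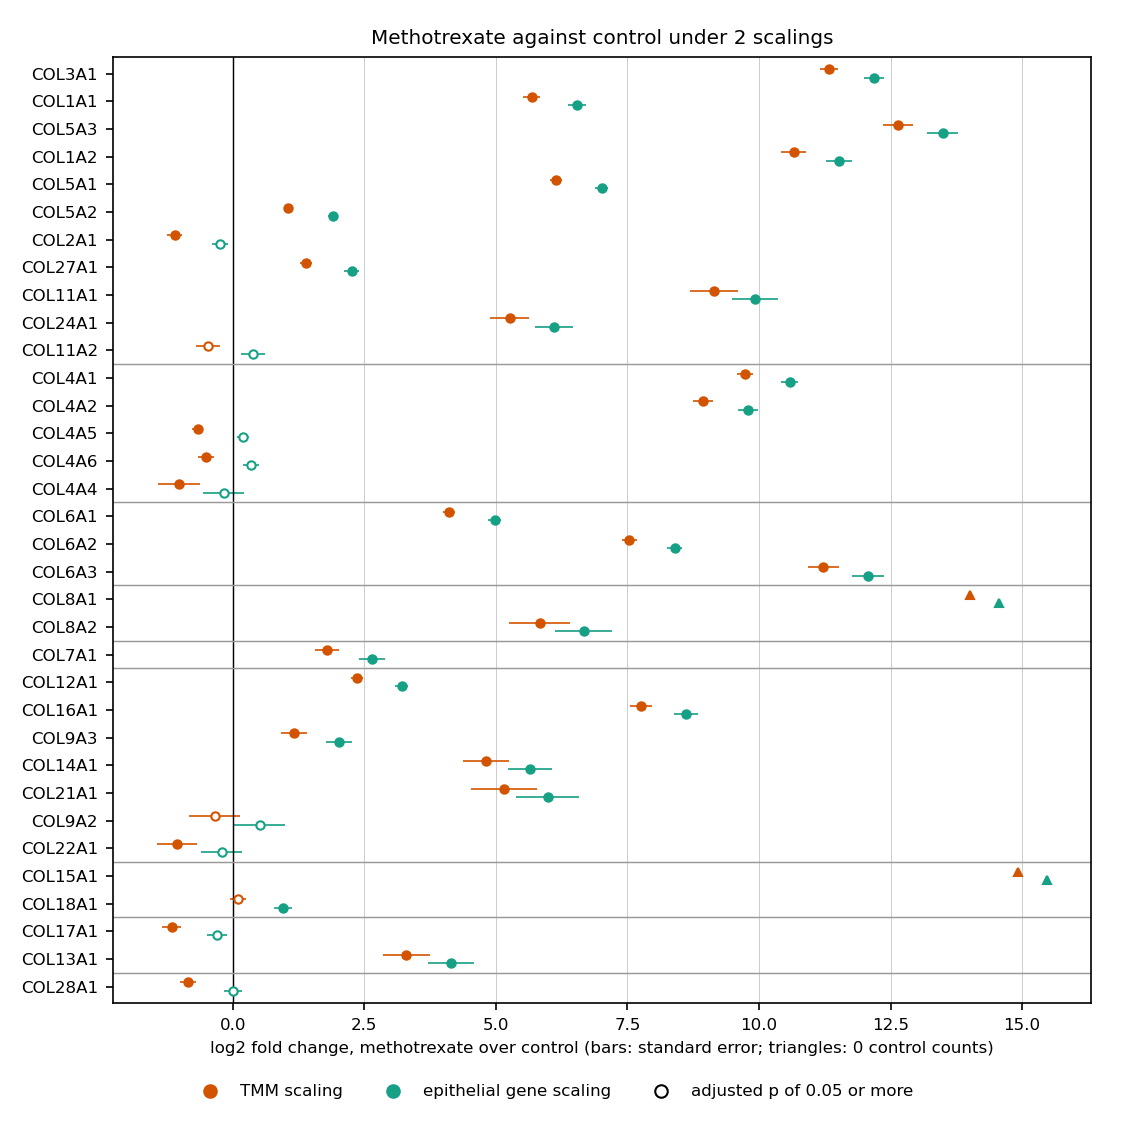
Points give the log2 fold change of methotrexate over control for each tested chain under TMM scaling and under scaling on epithelial genes, with standard errors as bars, open points for an adjusted p of 0.05 or more, and triangles for chains with 0 control counts, whose fitted value is no bound. The 7 chains called lower under TMM lie between -0.30 and 0.35 under epithelial scaling, and 0 are called lower there.

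The 250 bases upstream of 3 starts are shown for chains with opposite patterns under TMM scaling: COL15A1, at 0 outside the methotrexate libraries, COL5A3, the low chain that reached the highest level with methotrexate, and COL17A1, a Caco-2 chain that was called lower with methotrexate under TMM scaling but not under epithelial scaling. They come from RefSeq (GRCh38.p14), each on the strand of its gene, at chr9:98943657-98943906 (plus), chr19:10010505-10010754 (minus) and chr10:104085881-104086130 (minus), with the same motifs in capitals.
COL15A1: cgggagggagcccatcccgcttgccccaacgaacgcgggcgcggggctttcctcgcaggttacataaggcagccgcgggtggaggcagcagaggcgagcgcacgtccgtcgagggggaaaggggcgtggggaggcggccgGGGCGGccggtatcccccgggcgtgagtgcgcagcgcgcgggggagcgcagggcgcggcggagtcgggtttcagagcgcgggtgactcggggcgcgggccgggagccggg
COL5A3: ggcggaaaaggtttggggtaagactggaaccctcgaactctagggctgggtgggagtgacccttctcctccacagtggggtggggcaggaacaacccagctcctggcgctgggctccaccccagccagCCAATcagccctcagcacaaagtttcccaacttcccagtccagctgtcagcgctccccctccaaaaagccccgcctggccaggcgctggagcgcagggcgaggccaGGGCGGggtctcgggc
COL17A1: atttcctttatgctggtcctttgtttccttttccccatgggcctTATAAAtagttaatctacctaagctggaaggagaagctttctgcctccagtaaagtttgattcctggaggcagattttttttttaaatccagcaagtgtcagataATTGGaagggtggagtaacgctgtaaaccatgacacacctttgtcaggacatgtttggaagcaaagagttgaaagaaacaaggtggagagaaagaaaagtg
The COL15A1 window holds 76.8% G and C, with an observed to expected ratio of CpG of 1.11 and 1 GC box. The COL5A3 window holds 66.0% G and C, with a CpG ratio of 0.368, 1 GC box and 1 CCAAT box. The COL17A1 window holds 40.4% G and C, with a CpG ratio of 0.101, 1 TATA box and 1 CCAAT box. Over all windows the medians were 58.0% and 0.558. Windows were found for 31 of the 43 chains, 43 windows in all, with medians of 64.4% G and C over the 20 windows of Caco-2 chains and 65.0% over the 8 windows of chains low outside the methotrexate group. The 4 windows of the confined chains COL15A1 and COL21A1 had medians of 57.4% G and C and a CpG ratio of 0.428, below the values of the COL15A1 window.

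With lactoferrin alone, 0 of the 34 tested chains were called higher and 0 lower against control, as were 0% and 0% of all genes (edgeR quasi-likelihood test), and 2 chains had an unadjusted p under 0.05, against 3.75% of all genes. DESeq2 and limma-voom also called 0 chains, with 5 of 42 and 2 of 34 at an unadjusted p under 0.05, beside 2.49% and 3.30% of all genes. Over the 20 Caco-2 chains the log2 fold change of lactoferrin over control ran from -0.35 to 0.46, with a median standard error of 0.15. For 19 of them, all but COL4A4, the estimate with 2 standard errors on either side stayed within a 2-fold change. The lowest p was that of COL27A1, with 39.0, 43.6 and 42.4 CPM with lactoferrin and 27.8, 34.6 and 28.6 CPM in control. Its libraries did not overlap, at a log2 fold change of 0.46 ± 0.12, but its adjusted p was 1.

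With both agents, 0 chains were called higher and 0 lower against control, beside 0.0299% and 0% of all genes, and 6 chains had an unadjusted p under 0.05, against 3.53% of all genes (edgeR quasi-likelihood test). DESeq2 and limma-voom called 0 chains, with 9 of 42 and 5 of 34 at an unadjusted p under 0.05, beside 2.29% and 2.84% of all genes. The 6 chains, named after their values were seen, all had higher levels with both agents, each at an adjusted p of 1 (edgeR). They were COL4A1, COL4A2 and COL27A1 at log2 fold changes of 0.36, 0.42 and 0.27, and the low chains COL8A1, COL8A2 and COL11A1. These low chains entered the test only through the methotrexate libraries, which limits the comparison of the count of 6 with all genes. COL8A2 had 3, 2 and 13 counts with both agents and 0, 3 and 1 in control, and its highest library held most of them. The log2 fold change over control ran from -0.29 to 0.42 in the Caco-2 chains, and 19 of the 20, all but COL4A4, stayed within a 2-fold change at 2 standard errors. COL4A1 had 118, 99 and 89 counts with both agents and 81, 80 and 89 in control, a log2 fold change of 0.36 ± 0.13 (adjusted p 1). COL11A1, which had 1497 counts over the methotrexate libraries, had 3, 2 and 4 counts with both agents, 1, 1 and 0 with lactoferrin, and 0, 0 and 1 in control (adjusted p 1 in both comparisons).

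Against lactoferrin alone, the libraries of both agents again had 0 chains called higher and 0 lower, beside 0.0179% and 0% of all genes, and 5 chains with an unadjusted p under 0.05, against 3.37% of all genes (edgeR quasi-likelihood test). Named after their values were seen, these were COL4A1, COL4A2, COL8A1 and COL11A1, higher with both agents, and COL24A1, lower. COL8A1, COL11A1 and COL24A1 entered the test only through the methotrexate libraries. DESeq2 and limma-voom called 0 chains, with 3 of 42 and 1 of 34 at an unadjusted p under 0.05, beside 2.24% and 2.81% of all genes. Against methotrexate alone, 24 chains were called lower and 5 higher with both agents, beside 34.4% and 28.8% of all genes. This comparison shares the methotrexate libraries with that of methotrexate against control. The 10 chains that entered the test only through the methotrexate libraries are all among the 24 called lower. Their direction here follows from that filter and is a description. COL3A1 averaged 1.21 ± 0.377 CPM with both agents against 3781 ± 181 CPM with methotrexate, a log2 fold change of -11.62 ± 0.18 (adjusted p 1.21e-16). COL2A1 averaged 228 CPM with both agents and 120.0 CPM with methotrexate, and was among the 5 called higher. Scaled on the epithelial genes, 27 chains were called lower and 0 higher, beside 71.8% and 1.28% of all genes.

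Libraries of a group differed in the base composition of what was counted. Across 11144 genes, the deviation of a library from its group mean had a Spearman correlation with the G and C content of the transcript of -0.74 in library 3 of both agents and 0.70 in library 2, and of -0.58 in control library 1 and 0.44 in control library 3, as a description over genes that share a library. Of the 11 Caco-2 chains whose transcripts hold at least 60% G and C, 6 were at their group's lowest level in library 3 of both agents, among them COL2A1, COL18A1, COL1A1 and COL6A1. COL6A2 and COL7A1 were at their group's highest there, and the other 3 lay between. Of the 4 Caco-2 chains under 50%, COL4A4, COL5A2 and COL12A1 were at their group's highest in that library and COL28A1 at its lowest. The correlation was -0.67 in lactoferrin library 2 and 0.55 in lactoferrin library 3, and -0.39 in methotrexate library 3 and 0.33 in methotrexate library 2. The share of all genes of like composition at their lowest or highest in library 3 of both agents was not counted. The part of base composition in the comparisons was not tested.

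Genes that make, join, bind or break down collagen were read in 7 lists. Under TMM scaling, of the genes that modify prolyl and lysyl residues, 5 of 13 were called higher with methotrexate and 2 lower, against 35.4% and 29.1% of all genes. LEPRE1, prolyl 3-hydroxylase 1, averaged 58.1 ± 0.978 CPM with methotrexate and 18.8 ± 1.83 CPM in control (log2 fold change 1.63 ± 0.14, adjusted p 3.28e-08), and PLOD2, a lysyl hydroxylase, 146 ± 12.7 CPM with methotrexate and 41.1 ± 6.98 CPM in control (1.83 ± 0.22, adjusted p 2.18e-06). Of the genes of folding and export, 3 of 10 were higher and 3 lower, near the shares of all genes. MIA3, which loads procollagen into carriers leaving the endoplasmic reticulum, averaged 125 ± 4.203 CPM with methotrexate and 49.0 ± 4.196 CPM in control (1.35 ± 0.14, adjusted p 3.67e-07), and FKBP14, a prolyl isomerase, 33.5 ± 6.42 CPM with methotrexate and 15.1 ± 0.648 CPM in control (1.15 ± 0.15, adjusted p 4.91e-06). SERPINH1, the collagen chaperone HSP47, is named although the rule for named genes did not select it, and averaged 738 ± 76.8 CPM with methotrexate and 879.5 ± 46.7 CPM in control (-0.25 ± 0.09, adjusted p 0.026). Under epithelial scaling 12 of 13 and 9 of 10 genes of these lists were called higher and 0 lower, beside 72.6% and 0.932% of all genes, with SERPINH1 among the higher at 0.61.

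The lists of steps outside the cell held larger median log2 fold changes under both scalings, and some of their genes also entered the test only through the methotrexate libraries. Their counts under TMM scaling stand beside 35.4% of all genes called higher and 29.1% called lower. In procollagen processing 6 of 8 genes were higher and 1 lower, and of the 4 that pass the filter without those libraries, 2 were higher and 1 lower. PCOLCE2, an enhancer of the C-propeptidase, averaged 73.6 ± 7.13 CPM with methotrexate and 0.148 ± 0.0812 CPM in control (log2 fold change 8.95 ± 0.26, adjusted p 5.2e-14). ADAMTS2, the procollagen N-propeptidase, averaged 149 ± 13.01 CPM with methotrexate and had 0 counts in control. All 6 crosslinking genes were higher, and all 6 pass the filter without those libraries. PXDN, which crosslinks type IV collagen, averaged 434 ± 17.3 CPM with methotrexate and 0.745 ± 0.563 CPM in control (9.15 ± 0.27, adjusted p 7.52e-14), and LOXL2, a lysyl oxidase, 201 ± 7.74 CPM with methotrexate and 0.346 ± 0.258 CPM in control (9.11 ± 0.28, adjusted p 1.08e-13). With both agents PXDN was not called against control (log2 fold change 1.68, adjusted p 0.20).

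Of the collagen receptors, 6 of 9 tested were higher with methotrexate and DDR1, the receptor kinase of epithelial cells, was lower, and of the 6 that pass the filter without the methotrexate libraries 3 were higher. LAIR1, an inhibitory receptor of immune cells, averaged 42.9 ± 1.30 CPM with methotrexate and 0.0275 ± 0.0238 CPM in control, where it had 2 counts in all. The difference of LAIR1 is given as a description. ITGA11, the chain of a collagen-binding integrin of fibroblasts, averaged 59.6 ± 7.33 CPM with methotrexate and 0.259 ± 0.0801 CPM in control (log2 fold change 7.82 ± 0.23, adjusted p 6.81e-14). All 9 tested genes of the collagenolysis list were higher, and they included the inhibitors TIMP1, TIMP2 and TIMP3 beside the proteases MMP1, MMP2, MMP8, MMP13, MMP14 and CTSK. Of these, 7 pass the filter without the methotrexate libraries. MMP2, gelatinase A, averaged 403 ± 17.9 CPM with methotrexate and 0.321 ± 0.0727 CPM in control (10.29 ± 0.18, adjusted p 4.63e-16), and TIMP2 522 ± 10.2 CPM with methotrexate and 40.8 ± 4.33 CPM in control (3.68 ± 0.10, adjusted p 3.29e-14). Of the matrix genes whose products bind collagen, 9 of 11 were higher (7 of the 9 that pass the filter without the methotrexate libraries), and FMOD and FN1 were lower. SPARC averaged 3747 ± 66.1 CPM with methotrexate and 2.51 ± 1.07 CPM in control (10.56 ± 0.22, adjusted p 1.57e-15), and THBS1 1117 ± 63.0 CPM with methotrexate and 41.8 ± 7.52 CPM in control (4.74 ± 0.14, adjusted p 5.2e-14). Under epithelial scaling 7 of 8 processing, 6 of 6 crosslinking and 8 of 9 receptor genes were called higher. So were 9 of 9 collagenolysis genes and 10 of 11 matrix genes, beside 72.6% of all genes. Of DDR1, FMOD and FN1, FMOD alone stayed lower at a called level under this scaling (-0.28, adjusted p 0.026). DDR1 was not called (0.02, adjusted p 0.91) and FN1 was called higher (0.54, adjusted p 0.00024). In lactoferrin against control and in both agents against control, 0 genes of the 7 lists were called (edgeR quasi-likelihood test). Fibroblast and adipocyte markers moved with these lists as given above, and their part was not tested.

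**Figure D5:**
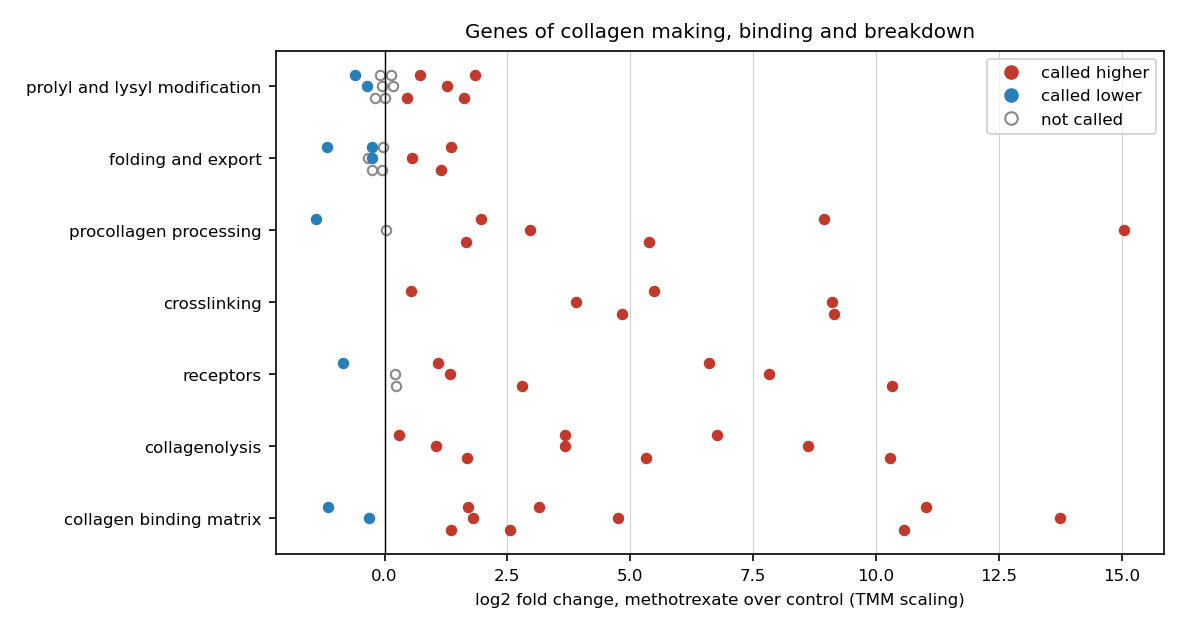
Each point is a tested gene of a list, placed at its log2 fold change of methotrexate over control under TMM scaling (red, called higher; blue, called lower; open, not called). All 6 crosslinking genes and all 9 tested genes of the collagenolysis list lie to the right of 0, while the genes of modification, folding and export lie on either side of it.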

How the data were processed

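Per the submitters' processing notes, CASAVA, STAR and DESeq2 were used with human build hg19. The sources used here give no versions, annotation, counting program or use of strand. The authors deposited whole-number counts per gene for 12 libraries, with a gene length per row and hg19 coordinates. The tests were run with edgeR 4.0.16 under R 4.3.3. Of 48162 genes, filterByExpr kept 16733, libraries were scaled with TMM, and 1 mean per group was fitted to all 12 libraries. The quasi-likelihood test was applied to 5 contrasts, with Benjamini-Hochberg adjustment over all tested genes and a threshold of 0.05. Standard errors are the log2 fold change divided by the square root of F. Epithelial scaling used the median ratio of 35 of 37 listed brush border and junction genes. CPM values use TMM library sizes, and CPM per kb divides by the deposited gene length. The fit was checked on simulated data.

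The members, classes and lists were chosen with earlier results of these data known. Values per library are given for the chain of each structural class with the highest mean CPM in control and with methotrexate, and for the type IV pairs; COL2A1 was added after its values were seen. Of each pathway list, the 2 genes with the lowest p in methotrexate against control are named. Alternatives used DESeq2 1.42.0, limma-voom (limma 3.58.1), other scalings, filters and thresholds, a replicate block, thinning, and fits without single libraries. Base composition of transcripts came from GENCODE v29, and the correlation used genes with at least 50 counts in every library. Promoter windows came from RefSeq.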

Additional observations from a re-analysis of the deposited data

Results flagged for a closer look

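For part of the collagen chains, the response to methotrexate differed without and with lactoferrin, in numbers that depended on the scaling. The difference between methotrexate against control and both agents against lactoferrin was tested in the same edgeR fit, a contrast added after the data were seen. It was higher without lactoferrin for 22 of 34 chains and lower for 4 chains at an adjusted p under 0.05, beside 26.1% and 20.6% of all genes. Among the 24 chains that pass the filter on low counts without the methotrexate libraries, it was higher for 14 and lower for 4, beside 23.3% and 22.7% of the genes that do so. Under epithelial scaling it was higher for 24 of 34 chains and lower for 0, beside 61.9% and 0.484% of all genes. Among the 24 chains of the restricted filter it was then higher for 16 and lower for 0, beside 61.7% and 0.528%. So the count of 4 depends on the scaling. The higher counts stood nearer the share of all genes under epithelial scaling than under TMM scaling. For the 10 chains that entered the test only through the methotrexate libraries, the direction follows from that filter and is a description. For COL3A1 the difference was 11.26 ± 0.33 on the log2 scale (SE, adjusted p 4.26e-13), for COL4A1 9.18 ± 0.20 (adjusted p 2.9e-14) and for COL5A2 1.19 ± 0.11 (adjusted p 3.31e-07). The 4 chains on the other side were COL17A1 at -1.37, COL2A1 at -0.92, COL28A1 at -0.82 and COL4A5 at -0.48 under TMM scaling. Under epithelial scaling COL17A1, COL2A1 and COL28A1 were not called, at -0.50, -0.06 and 0.04, and COL4A5 was called on the opposite side, at 0.39 (edgeR adjusted p 0.0401). COL15A1 and COL8A1 have 0 counts in at least 1 of the groups, so their fitted differences have no usable error.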

How the results depend on the processing

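Under each other scaling, tool, filter, threshold, block, thinning and left-out library, the 24 chains higher with methotrexate than in control and the 24 lower with both agents than with methotrexate stayed within 1.5 times of these counts, and the counts of 0 in the other comparisons stayed at 0. The shares of all genes beside the counts of 24 moved more. They were 35.4% and 34.4% under TMM scaling, and 72.6% and 71.8% under epithelial scaling, where 25 and 27 chains were called. How far the chains exceed the share of all genes therefore depends on the scaling. Among chains that pass the filter without methotrexate libraries, a restriction added after the data were seen, 14 were higher and 7 lower with methotrexate than in control, and 14 had a response that was higher without lactoferrin, in place of 22. Epithelial scaling, alone or with this restriction, left 0 of the 4 chains whose response was lower without lactoferrin. The 7 chains called lower with methotrexate than in control were 2 under the submitters' rule (over 2-fold, adjusted p under 0.01) and 0 under epithelial scaling. The 5 chains called higher with both agents than with methotrexate were 1 and 0 under these settings. The cause was not tested. Epithelial scaling turned COL4A5 to 0.20, COL4A6 to 0.35 and COL28A1 to 0.0052 on the log2 scale. With limits of 5 or 20 counts in place of 10, 24 or 18 chains were Caco-2 chains, and with limits of 0 or 10 in place of 3, 1 or 7 were confined to methotrexate libraries. Replicate numbers did not pair the methotrexate and control libraries, where correlations of same-numbered deviations were -0.15, 0.07 and -0.15. With the replicate block 24 chains were higher and 7 lower with methotrexate than in control, and 4 were higher with both agents than with methotrexate. For both agents and methotrexate the correlations were 0.06, 0.14 and 0.18, and 3 of 3 numbers correlated best with their own, a hint from the data and not the design. Depth limits the chains with under about 10 counts per library.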
